A study of Drosophila melanogaster with 3 samples.

Results

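The kni and knrl region is a stretch of 120 kb on the left arm of chromosome 3 (3L) of Drosophila melanogaster, named for the genes knirps (kni) and knirps-like (knrl). Its members are the Grainy head (Grh) peaks on 3L whose deposited start, a position counted from 0, lies from 20600000 to 20720000 in the dm3 build. They numbered 2 of the 1638 peaks of a mouse anti-Grh antibody and 12 of the 12158 peaks of a rabbit anti-Grh antibody. The peaks came from chromatin immunoprecipitation followed by sequencing (ChIP-seq) of w1118 embryos, the same strain in every group, aged 13 to 16 h and fixed with 1.8% formaldehyde. The groups were immunoprecipitates with the mouse anti-Grh antibody, with the rabbit anti-Grh antibody and with rabbit IgG, each represented by 1 library. The IgG library was not analysed here. The region was chosen by peak positions and scores of both lists, which put a strong common place in it, so all of its positions, scores and densities are given as a description, with no test.

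Grh is a transcription factor of epithelia, among them the epidermis and the tracheal tubes, where it is known for its part in barrier formation and in the growth of the apical cell membrane. The genes kni and knrl encode closely related zinc-finger transcription factors of the nuclear receptor family that lack a ligand-binding domain. Early in embryogenesis kni acts as a gap gene in the patterning of the body axis, and later both genes act in the migration of tracheal branches and in wing vein formation. Another member of the family, eagle (eg), acts in neuroblasts and is on the same arm. Whole embryos were used, so a peak does not say in which cells Grh was bound, and a peak near a gene does not say that Grh acts on it.

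In the gene table of Release 6, another build, knrl precedes kni on 3L, and 7 annotated genes start between them. Of these, 1 is protein coding, CG13251, and 6 are long non-coding RNA genes. The gene after kni is cmpy. These names come from that table alone. Positions were not converted between builds, so no peak is assigned here to an exon, an intron or a promoter of kni or knrl.

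The region was dominated by 1 place. Its mouse peak at chr3L:20685800-20685801 had a score of 19.3, order 6 of the mouse list, and its rabbit peak at chr3L:20685793-20685794 had a score of 109, order 12 of the rabbit list. The score is the authors' own value for a peak; its unit is not stated, and the lists need not be on 1 scale, so scores are compared within a list. The rabbit score of this place was the highest among all 1607 one-to-one pairs, in which a mouse and a rabbit peak lie within 250 bp and neither has a nearer partner. Its mouse score was of order 6 among the same pairs. The centres lay 7 bp apart, and 33.2% of the pairs were closer, so the distance was ordinary for the lists, where the median was 11 bp (quartiles 5 and 20 bp).

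Among the 12 highest-scoring rabbit peaks of the genome, that of the kni and knrl region was the only one with a mouse peak within 250 bp. The region was chosen for a strong place common to both lists, so its mouse peak was given by that choice. The cut at 12 is the order of its own peak. Of the first 100 rabbit peaks by score 24 had a mouse peak within 250 bp, and of the whole rabbit list 14.4% did. The other 11, with scores from 112 to 233, lay between 3530 and 364177 bp from the nearest mouse peak, with a median of 42179 bp. Rabbit peaks at a similar score were few: 5 others had a score within 10% of that of the region, and 0 of them had a mouse peak (exact Clopper-Pearson 95% interval 0 to 52.2%, covering counting error only). In the mouse list the first 6 peaks, with that of the region the last of them, all had a rabbit peak within 250 bp, as did 99% of the whole mouse list.

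**Figure D1:**
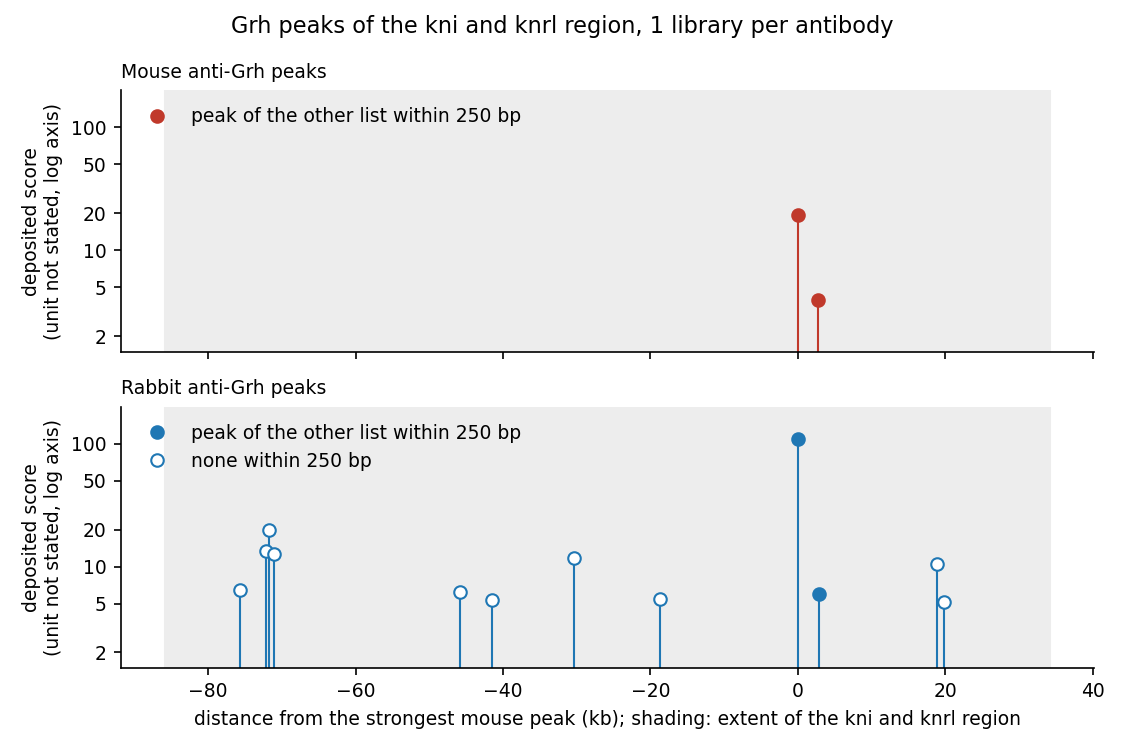
Deposited scores (log axis, unit not stated) of the 2 mouse peaks (upper panel) and the 12 rabbit peaks (lower panel) against the distance in kb from the strongest mouse peak; filled points have a peak of the other list within 250 bp and open points have none. The 2 filled places lie beside each other, and the 10 open rabbit peaks lie on both sides of them with scores from 5.12 to 19.9.

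The other place marked by both antibodies lay close by and was weak. Its mouse peak at chr3L:20688566-20688567 was 2766 bp to the right of the strongest one and had a score of 3.98, order 1163 of 1638. Its rabbit peak at chr3L:20688714-20688715 had a score of 5.94, order 6135 of 12158, near the middle of the list. The 2 centres were 148 bp apart, farther than in 98.8% of the 1607 pairs, and 18 pairs were farther still. At a limit of 100 bp this place was no longer shared, which left 1 of the 2 mouse peaks and 1 of the 12 rabbit peaks with a partner. Of the rabbit peaks elsewhere with a score within 10% of 5.94, 53 of 1544 had a mouse peak, or 3.43% (exact 95% interval 2.58 to 4.47%).

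The score ratios of the 2 pairs stood toward opposite ends of those of all pairs. The mouse score divided by the rabbit score was 0.18 at the strong place, below all but 6.16% of the pairs, and 0.67 at the weak place, above 97.9% of them. The median ratio over all pairs was 0.32 (quartiles 0.25 and 0.40). Because the scales are not stated, the ratios serve only to place these pairs among the others. These places follow partly from the scores themselves. The strong pair, in a region chosen for its scores, had the highest rabbit score of all pairs, and that score is the divisor. No mouse peak scored below 2.01, so a pair with the rabbit score of the weak place could not have a ratio as low as 0.18.

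**Figure D2:**
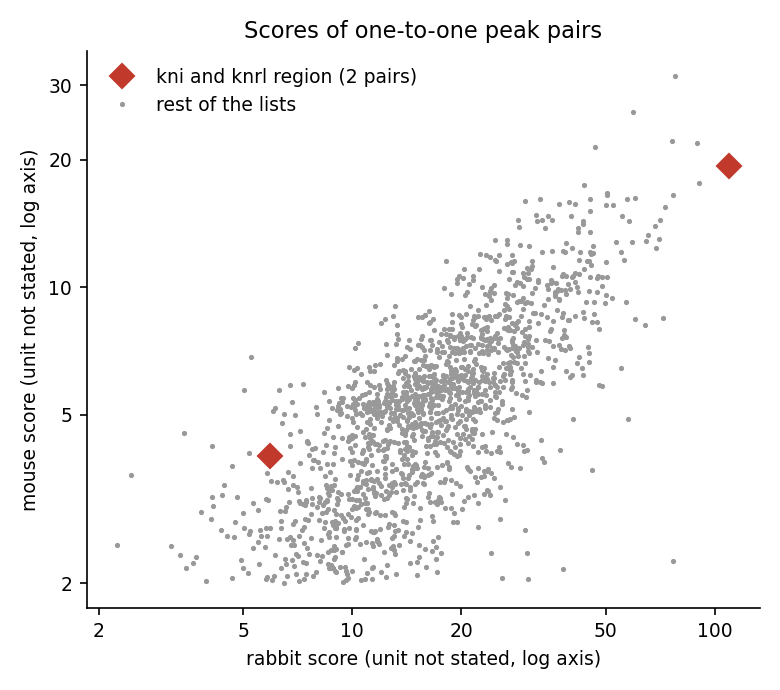
Mouse score against rabbit score (log axes, unit not stated) of 1607 one-to-one pairs; diamonds are the 2 pairs of the kni and knrl region and dots the rest of the lists. The strong pair lies farthest to the right, at a rabbit score of 109, and the weak pair lies at a mouse score of 3.98, above 29.1% of the pairs, and a rabbit score of 5.94, above 3.05% of them.

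In all, 2 of 2 mouse peaks of the region had a rabbit peak within 250 bp, against 99% of the whole mouse list. From the rabbit side 2 of 12 peaks, or 16.7% (exact 95% interval 2.09 to 48.4%), had a mouse peak, against 14.4% of the whole rabbit list and 14.4% of the rabbit peaks on the rest of 3L. The share of the region was close to that of the whole list, and with 12 peaks its interval is wide.

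The remaining 10 rabbit peaks had no mouse peak within 250 bp. The 5 highest-scoring of them were at 20614062 (score 19.9), 20613697 (13.3), 20614741 (12.7), 20655503 (11.7) and 20704731 (10.4), named here by their first base counted from 1. Their distances to the nearest mouse peak ran from 16165 to 72103 bp. The peak at 20614062 stood within the upper 8.64% of the rabbit list. Of the rabbit peaks elsewhere with a score within 10% of it, 230 of 362, or 63.5% (exact 95% interval 58.3 to 68.5%), had a mouse peak. The corresponding share was 37.2% for the peak at 20613697, 33.5% for that at 20614741, 30.6% for that at 20655503 and 23.1% for that at 20704731. The other 5 unmatched peaks were at 20610122 (score 6.46), 20639961 (6.25), 20667140 (5.45), 20644321 (5.33) and 20705582 (5.12). At these scores between 2.56% and 4.97% of rabbit peaks elsewhere had a mouse peak.

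The 3 highest of the unmatched peaks formed 1 group of 1044 bp at the lower-numbered end of the region, about 72 kb from the strong place. Elsewhere in the rabbit list 554 groups of exactly 3 peaks were found when peaks no more than 1 kb from the next were joined, with a median span of 973 bp. The highest score of the group, 19.9, exceeded that of 78.7% of them. A mouse peak within 250 bp of at least 1 member was present in 201 of the 554, or 36.3% (exact 95% interval 32.3 to 40.4%). It was present in 33 of the 40 whose highest score lay within 10% of 19.9, or 82.5% (67.2 to 92.7%). The group of the kni and knrl region thus stood with the 7 of these 40 that had no mouse peak. These comparisons with groups and scores elsewhere were chosen after the values of the region were seen.

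Divided into stretches of 40 kb, the region held 0, 0 and 2 mouse peaks and 5, 3 and 4 rabbit peaks, from low to high coordinates. Both places common to the antibodies were thus in the stretch from 20680001 to 20720000. The highest rabbit scores of the 3 stretches were 19.9, 11.7 and 109.

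The region as a whole was not crowded. It held 16.7 mouse peaks per megabase, against 13.5 on the rest of 3L, and 100 rabbit peaks per megabase, against 102. Its counts were set against all 24084 windows of 120 kb on 3L taken at steps of 1 kb; neighbouring windows overlap and are not independent. The mouse count of 2 stood beside a median of 1 (quartiles 0 and 2, highest 9), with fewer peaks in 55.2% of windows, as many in 20.6% and more in 24.2%. The rabbit count of 12 stood beside a median of 11 (quartiles 6 and 17, highest 41), with fewer in 50.5% of windows and more in 44.5%. Of the 1204 windows with 12 rabbit peaks, 48.8% held fewer than 2 mouse peaks, 29.9% held 2 and 21.3% held more. The highest scores, which were among the reasons for choosing the region, lay near the top of the windows. Its highest mouse score exceeded that of 99.5% of all windows and its highest rabbit score that of 99%. Windows that overlap the region and hold the same peak cannot be lower, and they are among the remainder. On the rest of 3L the highest mouse score was 17.7, so no other mouse peak of the arm scored higher. The highest rabbit score there was 211, and 2 of the 12 highest-scoring rabbit peaks were on 3L, that of the region included. Windows without a peak, 29.7% for mouse and 4.95% for rabbit peaks, were counted as lower. Among the windows that held a peak, the median of the highest scores was 6.49 for mouse and 24.2 for rabbit peaks.

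**Figure D3:**
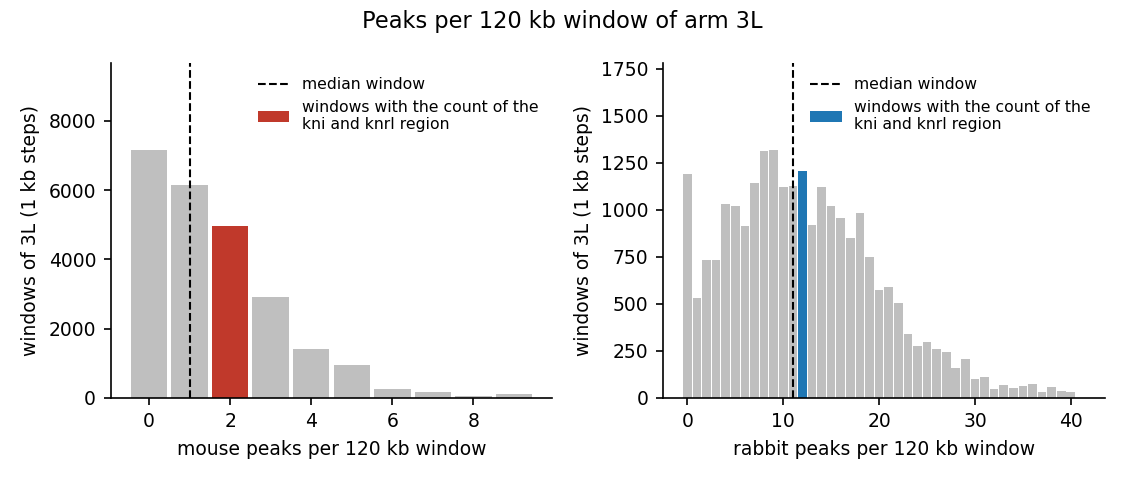
Number of 120 kb windows of 3L, at 1 kb steps, by the mouse peaks (left) and rabbit peaks (right) in them; the coloured bar is the count of the kni and knrl region, 2 and 12, and the dashed line the median window, 1 and 11. Both counts lie next to the median.

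The median score was 11.6 over the 2 mouse peaks of the region, against 5.32 on the rest of 3L, and 8.43 over its 12 rabbit peaks, against 6.02. The mouse median is only the midpoint of 19.3 and 3.98. The first is the score of the strong place, for which the region was chosen, and the second lies below 5.32. Of the 12 rabbit peaks, 8 lay above the median of the whole list and 2 in its upper 10%, the strong peak and that at 20614062. The rabbit scores within the region ran from 5.12 to 109, and their range without the strong peak ended at 19.9.

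Spacing was uneven. The 11 gaps between neighbouring rabbit peaks ran from 365 to 25220 bp with a median of 4360 bp, against 2959 bp on the rest of 3L. Of these gaps, 5 were over 10 kb and 3 were up to 1 kb. Chaining at 1 kb left 9 groups: the group of 3, a pair at 20704731 and 20705582 that were 851 bp apart, and 7 lone peaks, the strong peak among them. The median gap between the highest peaks of these groups was 11410 bp. The strong rabbit peak had its neighbours 18653 bp to the left and 2921 bp to the right. The strong mouse peak had no mouse peak for 173814 bp to its left, and the weak one had none for 127672 bp to its right. On the rest of 3L the gaps between neighbouring mouse peaks had a median of 37693 bp and reached 519441 bp. Just outside the limits of the region, the nearest rabbit peaks were at 20557199 (score 7.79), 42802 bp before the lower limit, and at 20723410 (score 2.65), 3409 bp past the upper one. The nearest mouse peaks outside were at 20511986 (score 2.56) and 20816238 (score 2.11).

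The surroundings of the strong place were compared with those of the next 9 pairs in the same ordering, by the lower-placed of a pair's orders in the mouse and rabbit lists. These 10 places were all chosen for their scores. Within 60 kb of the central peak the kni and knrl place had 2 mouse peaks, against 2 to 5 (median 3) at the other 9, and 11 rabbit peaks, against 7 to 25 (median 13). The highest score of any other rabbit peak within 60 kb was 12.2, while at the other 9 places it ran from 18.5 to 65.4 with a median of 27.7. The nearest other rabbit peak was 2921 bp away, whereas at the other 9 places it was 151 to 1818 bp away, with a median of 420 bp. Both of these values for the kni and knrl place lay outside the range of the other 9. The comparison of scores depends on the limit of 60 kb, and no other limit was tried for it. The rabbit peak at 20614062, with a score of 19.9, lay 71.7 kb from the strong place, beyond that limit. The lowest value of the other 9, 18.5, came from a peak 59.6 kb from its central peak. The peak with a score of 12.2 lay 41.5 kb to the right and is not a member of the region. The nearest other mouse peak, at 2766 bp, was within the range of the others, 166 to 15200 bp.

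**Figure D4:**
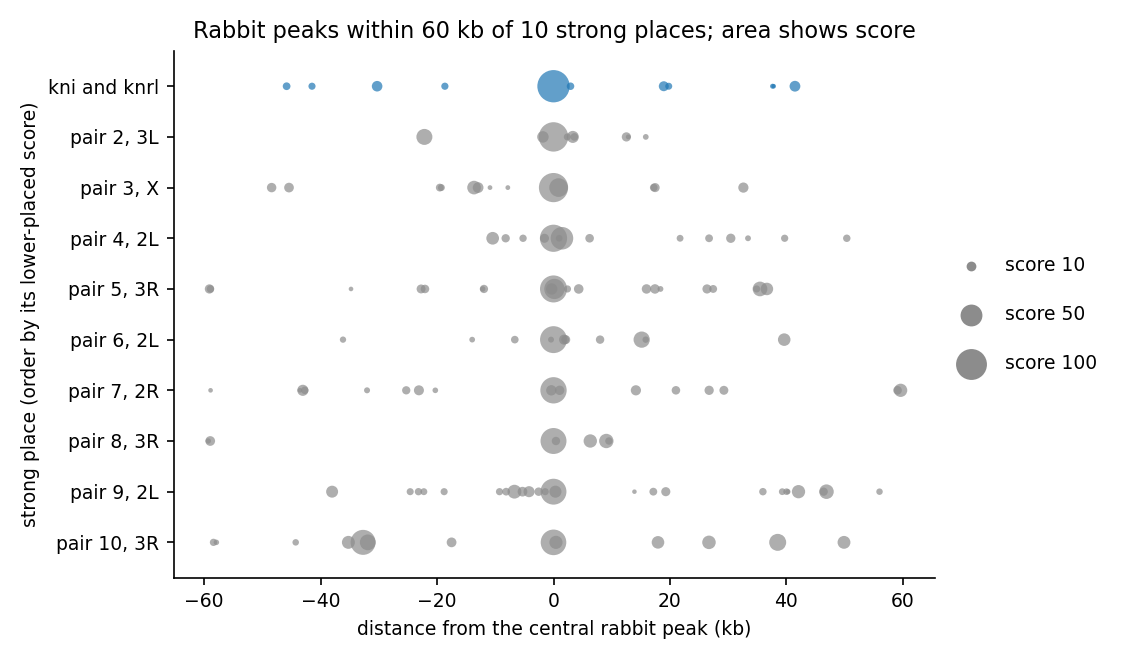
Rabbit peaks within 60 kb of the central rabbit peak of 10 strong places, 1 row per place; the horizontal axis is the distance in kb and the area of a point is proportional to its score. In the kni and knrl row (top, blue) the largest point beside the central one has a score of 12.2, and the other 9 rows each hold a peak of 18.5 or more beside theirs.

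The peak names carry a number and a rank whose basis is not stated, and these ordered the region partly as the scores did. Over its 12 rabbit peaks the number and the order by score had a Spearman correlation of 0.71, against 0.50 over the whole rabbit list, a description across peaks of 1 library. The 2 mouse peaks stood in the same order by score, number and rank. The strong place had number 77 and rank 120 among mouse peaks, and number 400 and rank 401 among rabbit peaks. The weak place had number 480 and rank 464 among mouse peaks, and number 857 and rank 312 among rabbit peaks. The lowest rabbit number of the region, 353, belonged to the peak at 20704731, whose score was 10.4. By number, 5 of the 12 rabbit peaks stood in the first 10% of the list, against 9.22% of those on the rest of 3L: the peaks at 20613697, 20614062, 20685793, 20688714 and 20704731. By score 2 of the 12 did, against 9.26% on the rest of 3L. The weak rabbit peak at 20688714, in the middle of the list by score, was thus within the first 7.05% by number. The peaks at 20613697 and 20614062, 365 bp apart, had the successive numbers 997 and 998. The basis of the number is not stated, so these 2 of the 5 need not be separate entries. They had rank 576 in common with each other and with no other rabbit peak. The ranks of 5 low-scoring rabbit peaks of the region, in contrast, were each also given to peaks on other chromosomes, with 13 to 25 peaks per rank. A rank in common therefore did not always mean a place in common.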

How the data were processed

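The submitters' processing notes name Bowtie and the dm3 build. How peaks were called, with which settings and with what use of the IgG control, is not given in the sources used here. Each anti-Grh library has its own list, deposited by the authors, with a score for each peak in an unstated unit, and every interval is 2 bp wide. Read depth is unknown, and the lists differ in length, so a rabbit peak with no mouse peak does not show that the mouse antibody failed to bind there.

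From these lists, peaks of the region were taken by position, matched to the other list where first bases lay within 250 bp, and ordered by score. Windows were counted by their start column. The length of 3L was taken as the highest peak end. Each antibody has 1 library, so there is no replicate spread; exact binomial (Clopper-Pearson) intervals cover counting error only. Since peaks are not replicates, no test was made. Every mouse peak, its nearest rabbit peak and the 5 highest unmatched rabbit peaks were to be named; all members are given. The members and lists were chosen with earlier results of these data known. The alternatives were other distances, limits, windows, groups and the upper part of each list. Sequences, motifs and the promoters of a list of tracheal genes were planned and not run, since no dm3 genome or promoter table was used here. Matching, chaining and window counts were tested on simulated data. The scripts ran under Python 3.11.15 with pandas 2.3.3, NumPy 2.4.6, matplotlib 3.10.9 and SciPy 1.17.1.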

Additional observations from a re-analysis of the deposited data

How the results depend on the processing

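Of 31 alternative values for 9 results, 29 stayed within 1.5 times the reported count or, for shares and medians, within a binomial interval of at least 95% where one can be had (for the 2 mouse scores, their range). These intervals are wide, so staying within them shows little: that of the median rabbit gap ran from 679 to 18653 bp and that of the median rabbit score from 5.45 to 13.3. With only the higher-scoring 50% of peaks kept, 1 mouse peak of the region was left, and the place of the region by rabbit peaks moved up, with fewer peaks in 65.9% of windows. Fewer peaks enter by construction. Groups chained at 1 kb numbered 9 rabbit groups, with a median score of 6.46 and a median gap of 11410 bp, against 4360 bp between single peaks; the gap is thus not stable, since chaining removes the short gaps by construction. Lengthening the region by 10 kb at each end gave 15 rabbit peaks, also with a median score of 6.46. Shortening it by 10 kb left 12. No paired analysis was possible because there is 1 library per antibody. The unit of the score, the read depth and the IgG background limit all values.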

Other observations

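The flanks of the kni and knrl region held no fewer rabbit peaks than the region, where the 12 had a median score of 8.43, and their median scores were lower. In the 120 kb to its left there were 14 rabbit peaks with a median score of 4.54 and a highest score of 8.64, and 1 mouse peak. In the 120 kb to its right there were 17 rabbit peaks with a median of 3.15 and a highest score of 24.8, at 20831657, and 2 mouse peaks, the stronger of which, at 20831653 with a score of 8.53, was 4 bp from that rabbit peak. Of the flanking rabbit peaks 1 on each side had a mouse peak within 250 bp. These values are a description of 1 library per antibody.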
